A study of Mus musculus with 24 samples.

Results

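The sirtuins are a family of enzymes that remove acetyl and other acyl groups from lysines and consume NAD+ for each group they remove, so that their activity depends on the NAD+ supply of the cell. The 7 mammalian genes, Sirt1 to Sirt7, were chosen by name, every one, from 21755 protein-coding genes on chromosomes 1 to 19 and X. SIRT1, SIRT6 and SIRT7 act mainly in the nucleus, SIRT2 acts mainly in the cytosol, and SIRT3, SIRT4 and SIRT5 act in mitochondria. SIRT6 removes acetyl groups from lysine 9 of histone H3, the mark measured here (H3K9ac), and SIRT1 is known to deacetylate the NF-κB subunit p65, whose acetylation the study addressed. H3K9ac lies at active promoters, where it flanks the start site. It does not measure the RNA, the protein or the activity of the enzyme.

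The mark was profiled by ChIPmentation, in which chromatin bound by an antibody is tagged by a transposase before sequencing, in 4T1 cells, a line from a mouse mammary carcinoma, grown as spheroids. Spheroids were collected on day 5, and each of 4 groups had 3 H3K9ac libraries. The scramble group (SCR), the CPT1a knockout group and the KAT2a knockout group received 75 µM palmitate. CPT1a brings long-chain fatty acids into mitochondria for oxidation, and KAT2a is a lysine acetyltransferase of H3K9. The acetate group was CPT1a knockout cells given 5 mM acetate, and its labels name acetate alone. One legend of the study describes the H3K9ac spheroids as kept in palmitate with or without acetate, whereas other legends give palmitate and acetate as alternatives. According to the study's methods, all lines carried an inducible Cas9 under doxycycline and were selected with puromycin, the knockout guides aimed at a pair of exons of each gene, and the control guide was aimed at EGFP. The labels do not say that replicates came from separate cultures, so p-values measure only the spread between these libraries.

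The peak lists held 16212 to 34370 peaks. The calling depth, a mean fragment coverage recovered from the peak statistics, ran from 1.87 to 2.52 in the scramble libraries and from 0.554 to 1.91 in the other 9. The shallowest were replicate 3 of CPT1a knockout, replicate 2 of the acetate group and replicate 3 of KAT2a knockout. Promoters of Cpt1a and Kat2a held a peak in 12 of 12 libraries, which does not check the knockouts, since the guides were aimed at exons. Of 8 epithelial markers, 6 held a promoter peak in every library, whereas 6 immune and 4 endothelial markers held none in any library. Of 5 fibroblast markers, Pdgfra was called in 12 libraries, Col1a1 in 11 and the other 3 in none. Of the 6 epithelial markers tested for rank, 1 passed, where 9.9% of all genes did in CPT1a knockout and 4.32% in KAT2a knockout. This was Epcam, an epithelial adhesion gene. It ranked higher in CPT1a knockout (31.0 ± 3.93) and in KAT2a knockout (47.3 ± 4.85) than in scramble (12.7 ± 1.73, SD, n = 3 libraries each, limma adjusted p = 0.028 and 0.00582). Krt7 and Krt8 were the lowest of the list in CPT1a knockout against scramble (-10.07 and -6.186 percentile points), without passing. Cdh1 came next below Epcam there, also without passing, and the median of the list was -1.431 points. The part of the Epcam difference in the results below was not tested.

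The promoter sequences of 4 members are printed as a description. They are Sirt1 and Sirt7, the members whose start base was left uncovered by peaks in some scramble libraries, Sirt3, the member whose rank differed, and Sirt4, which held none of the motifs searched. No relation of the motifs to the peak measures was tested. Each is the 250 bases before the RefSeq start, 5′ to 3′ on the strand of the gene, in build GRCm38.p6, and capitals mark matches to the motifs searched. They lie at chr10:63339036-63339285, minus strand, for Sirt1, at chr7:140882310-140882559, minus strand, for Sirt3, at chr5:115484298-115484547, minus strand, for Sirt4 and at chr11:120625015-120625264, minus strand, for Sirt7.
Sirt1: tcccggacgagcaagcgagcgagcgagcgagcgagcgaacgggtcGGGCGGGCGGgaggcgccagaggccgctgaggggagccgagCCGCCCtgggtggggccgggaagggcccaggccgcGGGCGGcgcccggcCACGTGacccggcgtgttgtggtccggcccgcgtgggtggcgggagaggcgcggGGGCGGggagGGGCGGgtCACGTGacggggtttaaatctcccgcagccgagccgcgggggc
Sirt3: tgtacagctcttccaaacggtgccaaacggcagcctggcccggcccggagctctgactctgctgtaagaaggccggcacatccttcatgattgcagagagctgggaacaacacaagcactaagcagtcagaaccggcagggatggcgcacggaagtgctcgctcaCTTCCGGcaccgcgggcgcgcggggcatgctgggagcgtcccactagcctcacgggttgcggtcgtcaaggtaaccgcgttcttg
Sirt4: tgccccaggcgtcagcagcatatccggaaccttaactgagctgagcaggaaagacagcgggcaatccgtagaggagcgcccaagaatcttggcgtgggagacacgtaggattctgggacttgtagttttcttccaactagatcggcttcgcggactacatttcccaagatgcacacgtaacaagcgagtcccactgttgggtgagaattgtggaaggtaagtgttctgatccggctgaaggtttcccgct
Sirt7: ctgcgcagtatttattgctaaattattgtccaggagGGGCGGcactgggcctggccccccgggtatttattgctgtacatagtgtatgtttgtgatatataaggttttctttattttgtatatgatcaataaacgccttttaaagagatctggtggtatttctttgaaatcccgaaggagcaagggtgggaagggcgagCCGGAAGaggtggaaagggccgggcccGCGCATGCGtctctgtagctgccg

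The motifs searched on both strands were the GC box GGGCGG, the CCAAT box, the E-box CACGTG, the NRF1 motif GCGCATGCG, the ETS motif CCGGAAG, the TATA box TATAAA and the NF-κB motif GGGACTTTC. Sirt1 had the most GC-rich window of the family, at 79.2% GC with 39 CpG dinucleotides, against a median of 52.4% GC over 26794 promoters. It held 6 GC boxes, a motif present in 33.2% of all promoters, and 2 E-boxes, present in 6.1%. Sirt7 held 1 GC box, 1 ETS motif (7.1% of promoters) and 1 NRF1 motif (1.5%). Sirt6 held 1 ETS motif and 2 NRF1 matches, which overlap because the motif is read on both strands. Sirt3 held 1 ETS motif, Sirt2 held 1 GC box and 2 CCAAT boxes (34.7% of promoters), and Sirt5 held 1 of each. Sirt4 matched none of the 7 motifs, and no member matched TATAAA (13% of promoters) or the NF-κB motif (0.3%). No match says only that these letters are not in the 250 bases searched.

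All 7 promoters, the windows within 1 kb of any annotated start, held a peak in all 12 libraries, which makes 84 of 84 pairs of gene and library. Over all protein-coding genes, 49.5% had a promoter peak in every library (10777 genes), and these genes were ranked. The strongest promoter peak of each gene was placed by its fold enrichment over the local background, as a percentile within its own library, where 0 is the weakest of the 10777 genes and 100 the strongest. The sirtuin promoters lay in the lower part of this scale apart from Sirt3. The median percentile over the 12 libraries was 58.1 for Sirt3, 39.7 for Sirt1, 30.7 for Sirt5, 27.6 for Sirt2, 24.2 for Sirt6, 18.3 for Sirt4 and 14.8 for Sirt7. Sirt3 ranked above Sirt1 in 10 of 12 libraries, and Sirt1 above Sirt5 in 10 of 12. The other neighbours in this order changed places between libraries: Sirt5 was above Sirt2 in 7, Sirt2 above Sirt6 in 7, Sirt6 above Sirt4 in 7 and Sirt4 above Sirt7 in 8.

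**Figure D1:**
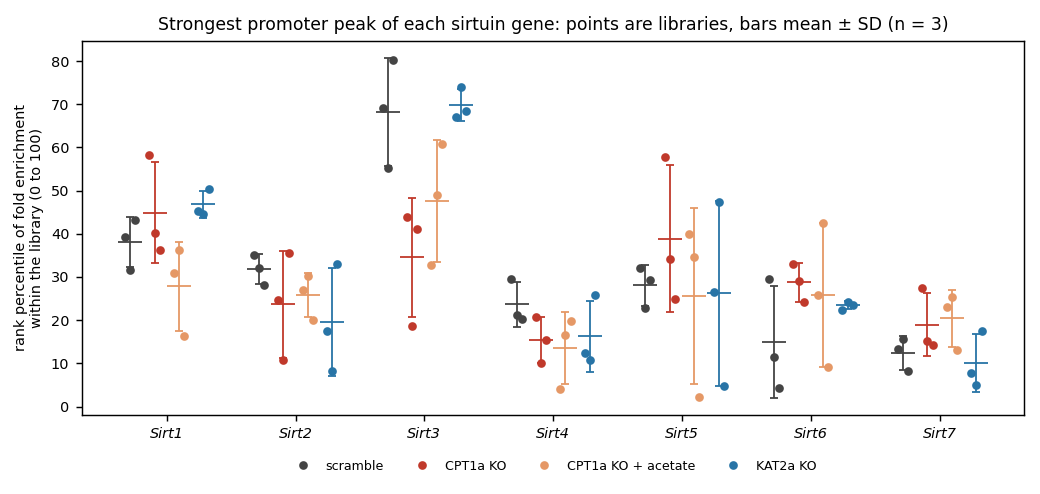
Rank percentile of the strongest promoter peak within its library (y axis, 0 to 100) for each sirtuin gene (x axis), by group. Points are libraries and bars are the mean ± SD of 3. For Sirt3, the 3 CPT1a knockout libraries (18.7 to 43.9) lie below the 3 scramble libraries (55.2 to 80.3), while the groups overlap for the other 6 genes in that comparison.

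Among the mitochondrial members, Sirt3 encodes the main deacetylase of the mitochondrial matrix (ENSMUSG00000025486, chr7:140863666-140882309, minus strand). It starts 105 bp from Psmd13, a gene of the proteasome lid on the opposite strand, and the strongest Sirt3 peak covered a Psmd13 start in 12 of 12 libraries, so its values belong to both genes. The Sirt3 percentile was 69.2, 55.2 and 80.3 in the scramble libraries, 43.9, 18.7 and 41.1 in CPT1a knockout, 32.9, 49.0 and 60.9 in the acetate group and 67.1, 74.0 and 68.4 in KAT2a knockout. Every CPT1a knockout library was below every scramble library, the KAT2a knockout libraries lay inside the scramble range, and the acetate libraries overlapped both the scramble and the CPT1a knockout libraries.

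In CPT1a knockout against scramble, the rank of Sirt3 fell by 33.65 percentile points (SE 9.18, 95% interval of the difference -53.95 to -13.35, limma adjusted p = 0.0447). It was the only one of the 7 members past the threshold of 0.05, where 9.9% of all genes tested were past it, 523 higher and 544 lower. The exact permutation test of 3 libraries against 3 gave p = 0.1 for Sirt3, the smallest p this design allows, and 30.9% of all genes had ranks that did not overlap between these groups. The call was close to the threshold: over 21 alternative settings the difference ran from -40.1 to -22.6 points and the adjusted p from 0.00156 to 0.149, with 8 settings past the threshold. It was lost when the trend of rank with GC content was removed (-24.79 points, adjusted p = 0.101). It was also lost, with differences of about the same size, with calling depth as a covariate (-32.83 points, adjusted p = 0.149), with the replicate number as a block (-33.65, 0.0501) and without the 3 shallowest libraries (-36.44, 0.112). On leaving out 1 library at a time, the difference ran from -40.12 to -25.7 points, and the call was lost without scramble replicate 1 (0.115) or 3 (0.145), any CPT1a knockout replicate (0.0502, 0.118 and 0.0689), acetate replicate 2 (0.0608) or any KAT2a knockout replicate (0.0613, 0.0592 and 0.0563), where the difference stayed at -33.65. When peaks were ranked among all peaks of the library, the split over all genes was 63 higher and 1353 lower around a median of -7.42 points, and Sirt2 (-15.67 points, limma adjusted p = 0.0253) passed beside Sirt3. That scaling gave 1 higher and 0 lower in KAT2a knockout and 9 higher and 95 lower with acetate against scramble, with medians of -3.71 and -4.13 points. The 3 comparisons with scramble share its libraries, and those of CPT1a knockout enter 2 comparisons.

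In KAT2a knockout against scramble, the Sirt3 ranks differed by 1.6 points (95% interval -18.7 to 21.9). None of the 7 members passed the threshold there, where 4.32% of all genes did, 182 higher and 284 lower. That split moved with the setting, to 997 and 1164 ranked by −log10 p, 60 and 98 with the depth covariate and 67 and 63 without scramble replicate 1. Of the members, the KAT2a knockout and scramble ranks were apart for Sirt1 alone, and 29.3% of all genes were apart. With acetate against CPT1a knockout, Sirt3 differed by 12.99 points (95% interval -7.31 to 33.3, limma adjusted p = 0.739). No member passed the threshold in this comparison, and 0.0% of all genes did, while 1009 of 10777 genes had an unadjusted limma p below 0.05. Of the members, the ranks in this comparison were apart for Sirt1 alone, and 14.2% of all genes were apart. With acetate against scramble, Sirt3 differed by -20.7 points (95% interval -41.0 to -0.36, limma adjusted p = 0.219). No member passed, while 5.91% of all genes did, and the ranks were apart for Sirt4 alone, against 31.9% of all genes.

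**Figure D2:**
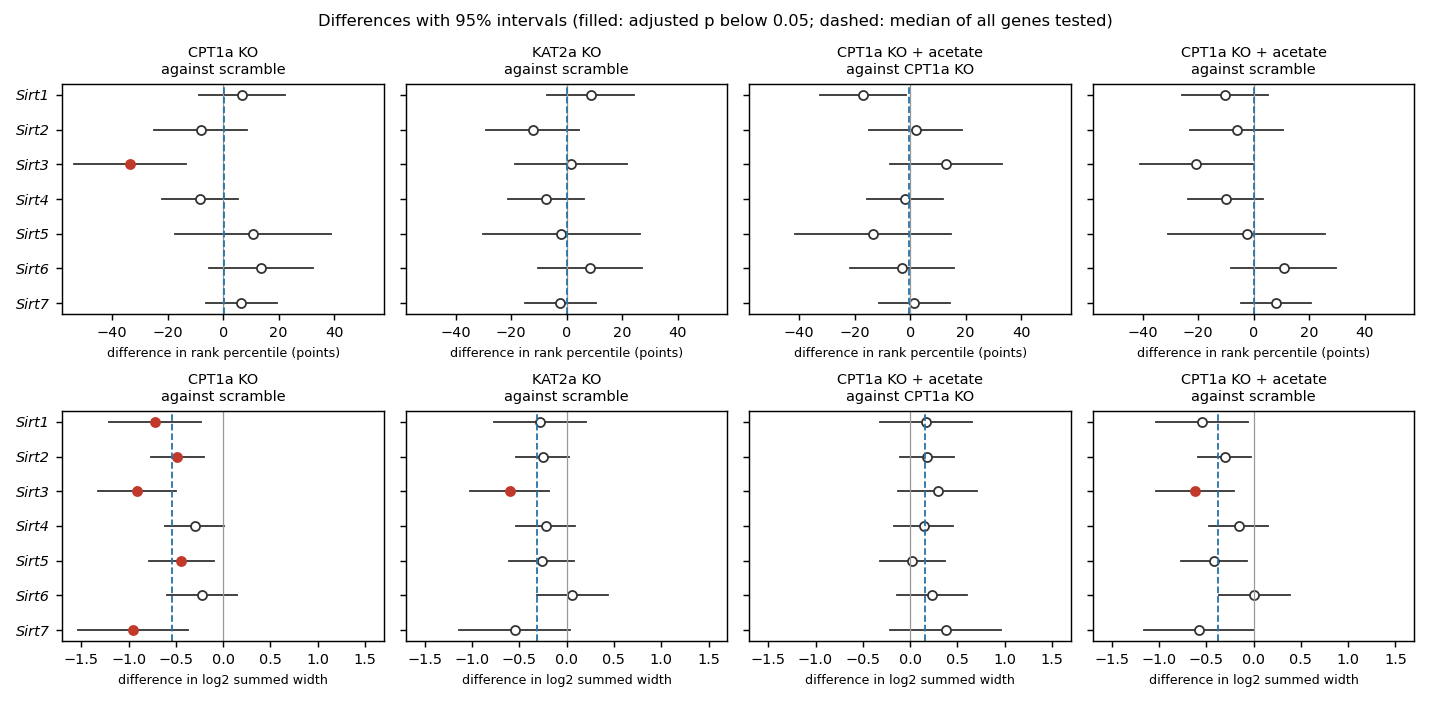
Differences between groups for the 7 genes (y axis) in rank percentile (upper row, points) and in log2 of the summed peak width (lower row), for the 4 comparisons. Circles are differences of group means (3 libraries each) with 95% intervals, filled where the limma adjusted p is below 0.05, and the dashed line is the median over the 10777 genes tested. Among the ranks, only Sirt3 in CPT1a knockout is filled, whereas 5 widths are filled in the same comparison and the median over all genes lies at -0.54.

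Sirt4 and Sirt5 complete the mitochondrial group. SIRT4 acts on lipoyl and other acyl groups and is known for ADP-ribosylation of glutamate dehydrogenase (ENSMUSG00000029524, chr5:115478010-115484725, minus strand). Its percentile was 29.6, 21.1 and 20.3 in scramble, 20.8, 10.1 and 15.3 in CPT1a knockout, 4.03, 16.6 and 19.9 in the acetate group and 12.4, 10.7 and 25.7 in KAT2a knockout. The acetate libraries all lay below the scramble libraries, by 10.1 points in the mean (95% interval -23.8 to 3.52 for the difference, limma adjusted p = 0.375), and the other groups overlapped with scramble. SIRT5 removes succinyl, malonyl and glutaryl groups (ENSMUSG00000054021, chr13:43365496-43395203, plus strand). Its percentile was 32.1, 22.8 and 29.3 in scramble, 57.8, 34.1 and 24.8 in CPT1a knockout, 39.9, 34.5 and 2.18 in the acetate group and 26.5, 47.5 and 4.70 in KAT2a knockout. The spread within each of the 3 groups outside scramble (SD 17.0, 20.4 and 21.4) exceeded every difference between group means for Sirt5.

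Of the nuclear members, SIRT1 deacetylates transcription factors and histones (ENSMUSG00000020063, chr10:63319005-63381704, minus strand). Its percentile was 39.4, 31.7 and 43.2 in scramble, 58.2, 40.1 and 36.3 in CPT1a knockout, 30.8, 36.3 and 16.4 in the acetate group and 45.3, 44.7 and 50.4 in KAT2a knockout. The KAT2a knockout libraries were all above scramble, and the acetate libraries were all below the lowest CPT1a knockout library, the nearest at 36.26 against 36.3. The first difference was 8.70 points (95% interval -6.92 to 24.3, limma adjusted p = 0.537), and the second was -17.05 points (95% interval -32.7 to -1.44, limma adjusted p = 0.488). SIRT6 deacetylates H3K9 (ENSMUSG00000034748, chr10:81621785-81627797, minus strand). Its percentile was 29.4, 11.4 and 4.23 in scramble, 33.1, 29.0 and 24.2 in CPT1a knockout, 25.8, 42.4 and 9.19 in the acetate group and 22.4, 24.3 and 23.5 in KAT2a knockout. Scramble replicate 1 lay within the range of the other groups and scramble replicate 3 was the lowest of the 12 libraries. CPT1a knockout and scramble differed by 13.75 points (95% interval -5.06 to 32.55). SIRT7 is a nucleolar enzyme known for deacetylating lysine 18 of histone H3 (ENSMUSG00000025138, chr11:120618372-120625240, minus strand). Its percentile was 13.3, 15.7 and 8.18 in scramble, 27.4, 15.3 and 14.2 in CPT1a knockout, 23.0, 25.4 and 13 in the acetate group and 7.70, 4.97 and 17.6 in KAT2a knockout, and every pair of groups compared overlapped.

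Sirt2, the cytosolic member, deacetylates tubulin (ENSMUSG00000015149, chr7:28766735-28788661, plus strand). Its start lies 112 bp from that of Nfkbib, which encodes the NF-κB inhibitor IκBβ on the opposite strand, and the strongest Sirt2 peak covered a Nfkbib start in 10 of 12 libraries. The Sirt2 percentile was 35.1, 32.1 and 28.2 in scramble, 24.6, 10.9 and 35.6 in CPT1a knockout, 26.9, 30.3 and 20.1 in the acetate group and 17.6, 8.26 and 33.0 in KAT2a knockout. The groups overlapped, and the differences from scramble were -8.12 points for CPT1a knockout and -12.2 points for KAT2a knockout, each with a 95% interval that included 0.

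The position of the peaks around the start site was compared next. In 10 of 21 pairs of member and scramble library, a gap between neighbouring peaks lay within 300 bp of the start, against 7 of 63 pairs in the other 9 libraries, where it occurred at Sirt1 in 2 acetate libraries and at Sirt2 in 5 libraries. Over all 8126 genes placed by a RefSeq start, such a gap lay in 37.5% of pairs in scramble and 14.5% in the other 9 libraries, so scramble had more gaps in general. With the start base at 0 and positive distances into the gene, the Sirt1 gap ran from -191 to -62 in scramble replicate 1, from -276 to 157 in replicate 2 and from -154 to 163 in replicate 3. It thus covered part of the Sirt1 sequence printed above in all 3 scramble libraries. The Sirt1 gaps in acetate replicates 1 and 2, from -265 to -183 and from -279 to -44, also covered part of it. At Sirt7 the gap ran from -43 to 130 in scramble replicate 2 and from 26 to 126 in replicate 3, and replicate 1 had none within 300 bp. At Sirt5 it ran from -154 to -16 and from -241 to -24 in scramble replicates 1 and 3, and at Sirt4 from -309 to -113 in replicate 3. At Sirt2 it ran from -170 to -105 and from -282 to -108 in scramble replicates 1 and 3. The start base lay under a peak in 18 of 21 pairs in scramble and in 63 of 63 pairs in the other libraries. Over the 8126 genes with a peak within 1 kb of the RefSeq start in every library, it was covered in 66.2% of pairs in scramble and in 91.6% in the other 9 libraries, so this difference was not particular to the sirtuins.

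**Figure D3:**
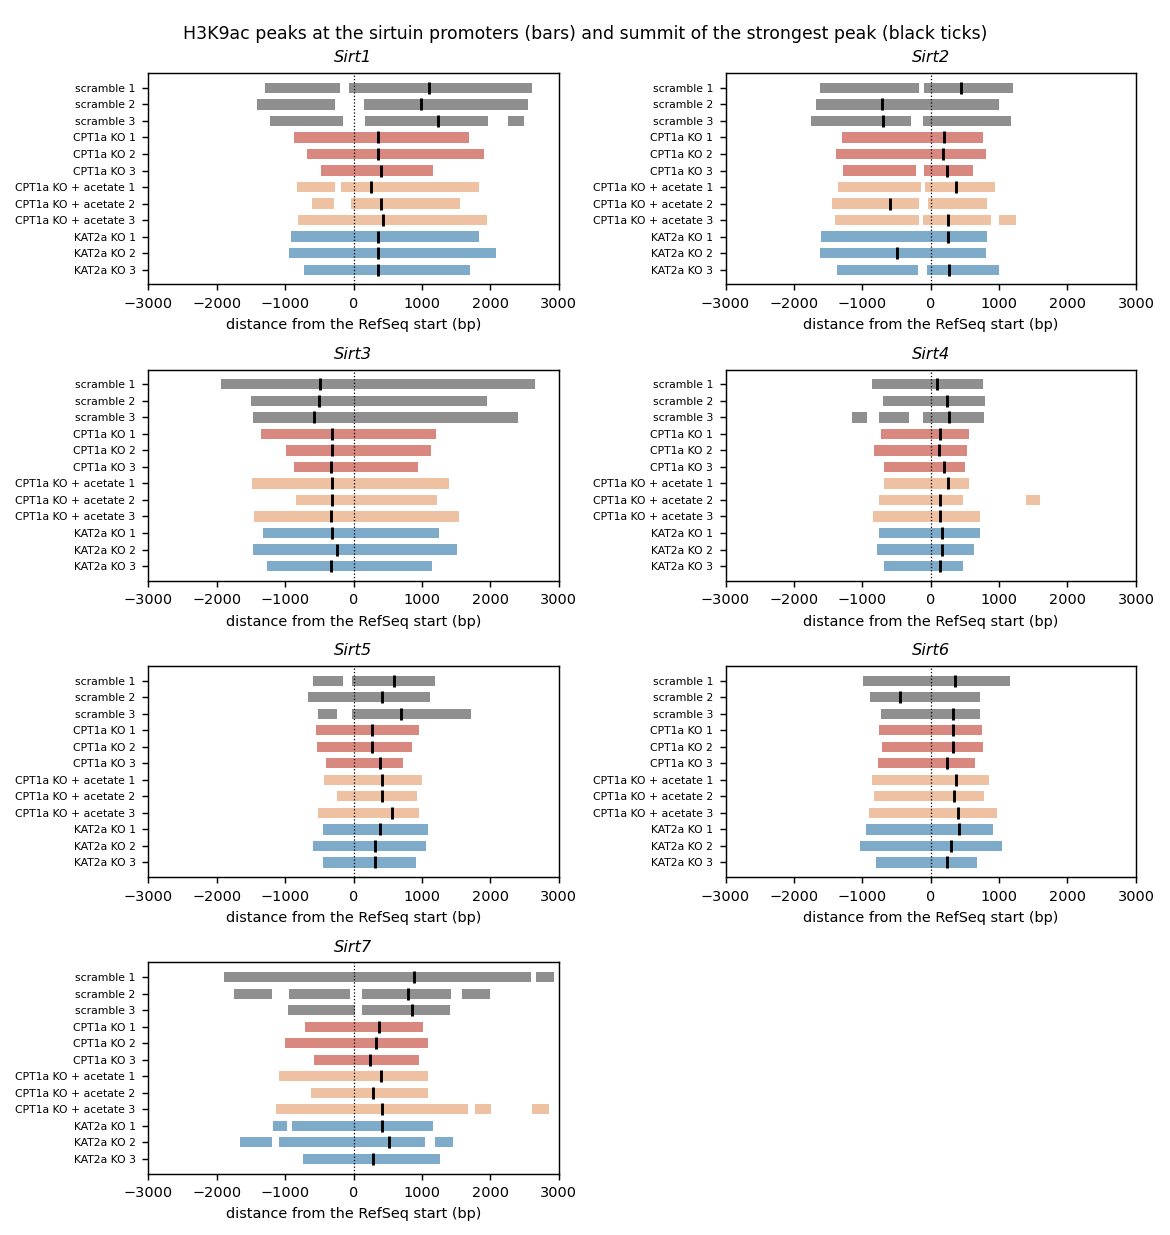
Deposited peaks (bars) at the 7 promoters in each of the 12 libraries (rows, coloured by group), by distance from the RefSeq start in bp (x axis, positive into the gene). Black ticks mark the summit of the strongest peak. At Sirt1 the scramble summits lie 984 to 1231 bp into the gene and those of the other 9 libraries 262 to 434 bp, and at Sirt4 the 12 summits lie within 91 to 274 bp.

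The summit of the strongest peak was placed relative to the same start. At Sirt1 it lay 1105, 984 and 1231 bp into the gene in scramble, in an intron, and 359, 358 and 404 bp in CPT1a knockout, in a coding exon. It lay 262, 397 and 434 bp into the gene in the acetate group and 353, 359 and 356 bp in KAT2a knockout, also in a coding exon. The highest value outside scramble was 434 bp and the lowest scramble value 984 bp. At Sirt7 it lay 890, 802 and 860 bp into the gene in scramble, 368, 326 and 246 bp in CPT1a knockout, 400, 278 and 421 bp in the acetate group and 410, 516 and 283 bp in KAT2a knockout. The Sirt7 summits lay in a non-coding exon in all 3 scramble libraries and in a coding exon or an intron in the others. At Sirt3 it lay upstream of the start, on the Psmd13 side, at -497, -500 and -580 bp in scramble and at -326 to -236 bp in the other 9 libraries. For these 3 of 7 members the scramble summits were all farther from the start than those of the other 9 libraries, as they were for 41.3% of all genes.

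In CPT1a knockout against scramble, the summit was nearer the start for 5 of 7 members, where 64.1% of all genes were. The distance fell by 733 bp at Sirt1 (SE 62.4, limma adjusted p = 8.96e-06), with differences of -537 bp at Sirt7 (SE 63.7, limma adjusted p = 8.84e-05) and -205 bp at Sirt3 (SE 35.7, limma adjusted p = 0.000967). It also fell at Sirt2 and Sirt5, with differences of -410 and -256 bp (limma adjusted p = 0.00649 and 0.0108). At Sirt4 the difference was -50 bp (95% interval -170 to 69.8), and at Sirt6 it was -83.3 bp (95% interval -198 to 31.7). In KAT2a knockout the same 5 members passed, against 47.2% of all genes, with Sirt2 at the threshold (-276 bp, limma adjusted p = 0.0479). The Sirt2 and Sirt5 calls in KAT2a knockout held in 7 and 10 of 16 alternatives and were both lost without the 3 shallowest libraries. With acetate against scramble, Sirt1, Sirt3 and Sirt7 passed, against 42.3% of all genes, and with acetate against CPT1a knockout no member passed, against 0.0246% of all genes. The median over all genes was -245 bp for CPT1a knockout, -186 bp for KAT2a knockout and -168 bp for acetate, each against scramble, and 48.7 bp between acetate and CPT1a knockout. The distances at Sirt1, Sirt2 and Sirt7 differed by more than the median in the first 3 comparisons. Sirt5 did so in CPT1a and KAT2a knockout (-256 and -227 bp), and Sirt3 in KAT2a knockout and with acetate (-232 and -209 bp). Sirt4 and Sirt6 did so in none of them, and the excess was not tested. The calls for Sirt1, Sirt3 and Sirt7 in the 3 comparisons with scramble held in all 16 alternatives run, among them the depth covariate.

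**Figure D4:**
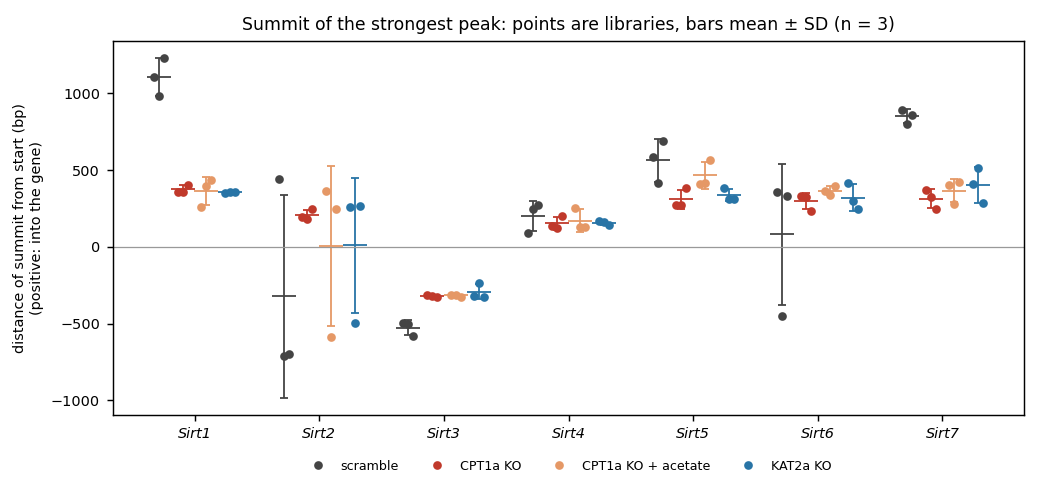
Distance of the summit of the strongest peak from the RefSeq start (y axis, bp, positive into the gene) by member (x axis) and group. Points are libraries and bars are the mean ± SD of 3. The scramble libraries stand apart at Sirt1 (984 to 1231 bp against 262 to 434 bp) and Sirt7 (802 to 890 bp against 246 to 516 bp), while at Sirt2 the summit lies upstream of the start in 4 libraries of 3 groups.

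Sirt2 and Sirt6 differed from the others in that the summit changed sides. At Sirt2 it lay on the Nfkbib side of the start, at -710 and -697 bp in scramble replicates 2 and 3, at -590 bp in acetate replicate 2 and at -497 bp in KAT2a knockout replicate 2, and it lay 181 to 441 bp into Sirt2 in the other 8 libraries. At Sirt6 it lay at -448 bp in scramble replicate 2 and 235 to 415 bp into the gene in the other 11 libraries. The tested quantity was the distance without its sign.

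Width was compared as the summed length of the promoter peaks. The summed width of the promoter peaks of Sirt3 was 4824, 3460 and 3878 bp in scramble, 2562, 2113 and 1800 bp in CPT1a knockout, 2882, 2060 and 3005 bp in the acetate group and 2576, 2979 and 2408 bp in KAT2a knockout. All 9 libraries outside scramble were below the 3 scramble libraries. The same held for Sirt2, with 2749 to 2957 bp in scramble and 1808 to 2470 bp elsewhere, which makes 2 of 7 members, against 41.3% of all genes. At Sirt7 the width was 5035, 3159 and 2566 bp in scramble and 1732, 2095 and 1548 bp in CPT1a knockout, without overlap, and it was 1718 to 3272 bp in the other 2 groups, which overlapped scramble. At Sirt1 it was 4853, 4842 and 4071 bp in scramble and 3414, 3409 and 1848 bp in CPT1a knockout. The Sirt1 sum includes a peak at another annotated start, at the 5′ end of the annotated gene, whose summit lay at -43555 to -43243 bp from the RefSeq start in the 12 libraries. The Sirt7 sums include peaks near other annotated starts, at 2669 to 2935 and 5250 to 5535 bp in scramble replicate 1. They also include such peaks at 5295 to 5597 bp in scramble replicate 3 and 2611 to 2854 bp in acetate replicate 3. In CPT1a knockout Sirt7 had 1 peak per library. Such peaks also enter the Sirt2 sum of scramble replicate 2 (9418 to 9701 bp) and the Sirt3 sum of scramble replicate 1 (3538 to 3775 bp).

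In CPT1a knockout against scramble, 5 of 7 members passed the threshold as narrower, where 61.4% of all genes did and the median over all genes was -0.54 on the log2 scale. The log2 width fell by 0.95 at Sirt7 (SE 0.27, limma adjusted p = 0.0105), by 0.91 at Sirt3 (SE 0.19, limma adjusted p = 0.00316), by 0.72 at Sirt1, by 0.48 at Sirt2 and by 0.44 at Sirt5. The difference was -0.30 at Sirt4 (limma adjusted p = 0.0854) and -0.23 at Sirt6 (limma adjusted p = 0.253). In KAT2a knockout against scramble only Sirt3 passed (-0.60, limma adjusted p = 0.0459), where 18.5% of all genes were narrower, and with acetate against scramble only Sirt3 passed (-0.62, limma adjusted p = 0.0314), where 30.5% were. With acetate against CPT1a knockout no member passed as narrower, nor did any other gene (0.0%), and 428 of 10777 genes had an unadjusted limma p below 0.05 in either direction.

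The count of narrower members changed with the fit and with the measure of width. With calling depth as a covariate, 2 members were past the threshold in CPT1a knockout (Sirt2 and Sirt3), and the split over all genes was 493 wider and 3799 narrower, against 67 and 6612 without it. The same covariate gave 754 wider and 1840 narrower in KAT2a knockout (96 and 1992 without it) and 572 wider and 1593 narrower with acetate against scramble (57 and 3282 without it). By the widest single peak instead of the sum, only Sirt3 was past the threshold in CPT1a knockout, and the split over all genes was 127 wider and 2852 narrower. The Sirt7 difference was then -0.13 (limma adjusted p = 0.821). The Sirt3 call in CPT1a knockout held in all 20 alternatives (adjusted p from 0.000814 to 0.0168), whereas those in KAT2a knockout and with acetate held in 8 and 13 of 20. The KAT2a knockout call was lost on leaving out, 1 at a time, scramble replicates 1 or 3, CPT1a knockout replicates 1 or 2, acetate replicates 1 or 3 or any KAT2a knockout replicate (limma adjusted p from 0.0517 to 0.176), and the acetate call on leaving out scramble replicates 1 or 3 or acetate replicates 1 or 2 (0.0524 to 0.142). In CPT1a knockout, the Sirt1 call was lost without scramble replicate 1 or CPT1a knockout replicate 3, the Sirt7 call without scramble replicate 1, and the Sirt5 call without scramble replicates 2 or 3 or CPT1a knockout replicate 3.

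**Figure D5:**
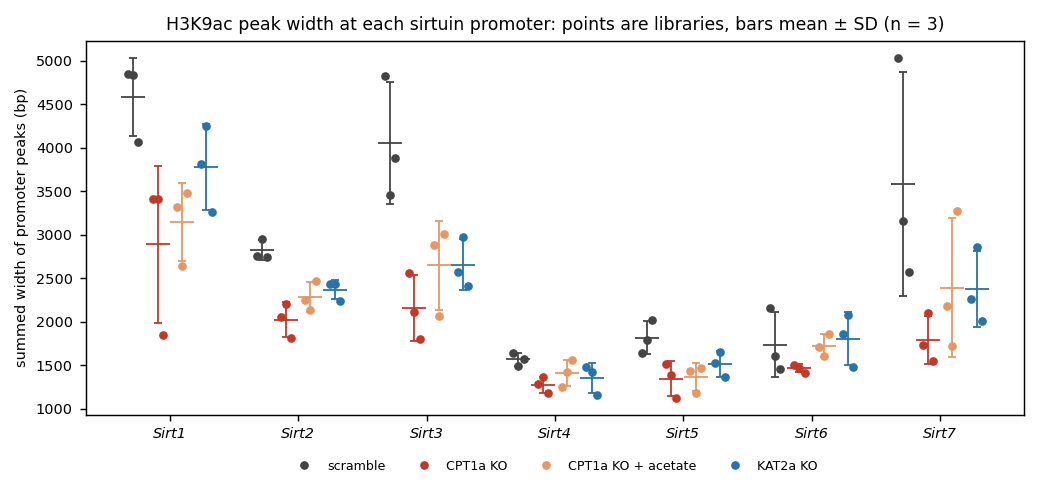
Summed width of the promoter peaks (y axis, bp) by member (x axis) and group. Points are libraries and bars are the mean ± SD of 3. At Sirt3 the 3 scramble libraries (3460 to 4824 bp) lie above all 9 others (1800 to 3005 bp), while Sirt6 spans 1452 to 2154 bp in scramble and 1415 to 2079 bp elsewhere.

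The scramble libraries were also set against the other 9 together, which are not replicates of one condition. By the exact permutation test over 220 assignments, whose smallest p is 0.00455, no member differed in rank, and neither did any other gene (0.0%), although 910 genes reached the smallest p. For width, Sirt2, Sirt3 and Sirt5 passed (adjusted exact permutation p = 0.0136, 0.0136 and 0.0385), where 49.9% of all genes did. For the summit distance, Sirt1, Sirt2, Sirt3, Sirt5 and Sirt7 passed, where 59.3% of all genes did. The scramble libraries had the highest calling depths apart from 1 acetate library (1.91), so that depth and group cannot be told apart by these tests.

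Peaks inside the member genes but outside every promoter window were found in 4 of 21 pairs of member and library in scramble and in 0 of 63 in the other 9 libraries, against 40.0% and 19% of pairs over the 10777 genes ranked. Each gene had them in a single library. They numbered 2 at Sirt1, 1 at Sirt2 and 1 at Sirt3, all in scramble replicate 3, and 2 at Sirt5 in scramble replicate 1. None was called at Sirt4, Sirt6 or Sirt7. The scramble lists held 29176 to 34370 peaks and the others 16212 to 24639.

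Genes that supply or share the NAD+ of the sirtuins were described from lists chosen by function. The median percentile over the 12 libraries was 27.6 for the sirtuins, 63.7 for NAD+ synthesis and salvage, 53.2 for other NAD+-consuming enzymes, 49 for regulators and substrates of sirtuins and 37.3 for zinc-dependent histone deacetylases. Of 21 genes of NAD+ synthesis and salvage, 9 had no promoter peak in any library and 10 were tested, and none passed the threshold for rank in any of the 4 comparisons. In CPT1a knockout against scramble, their median difference was -5.71 points, against 0.22 over all genes. The lowest were Afmid, of the kynurenine pathway (57.9 ± 26.3 against 75.0 ± 26.4, limma adjusted p = 0.509), and Nmrk1, which phosphorylates nicotinamide riboside (41.2 ± 37.5 against 57.9 ± 15.7). The highest were Nadk, which makes NADP+ (75.7 ± 12.02 against 50.5 ± 14.6, limma adjusted p = 0.0832), and Nmnat1, the nuclear NAD+ synthase (64.0 ± 9.24 against 49.96 ± 16.0).

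Of 18 other NAD+-consuming enzymes, 16 were tested and none passed in any comparison, with a median of -5.67 points in CPT1a knockout. Parp2, a DNA repair enzyme, had the largest difference (26.0 ± 18.2 against 72.9 ± 22.0, limma adjusted p = 0.0678), followed by Parp4 (12.8 ± 5.84 against 31.8 ± 14.8). Parp10 and Parp6 lay at the other end, with 15.95 and 13.29 points. Of 11 zinc-dependent histone deacetylases, which need no NAD+, 10 were tested and 1 was lower in CPT1a knockout: Hdac4, a class IIa enzyme, at 44.1 ± 6.68 against 70.1 ± 5.41 (limma adjusted p = 0.0337). Over all genes tested, 9.9% passed for rank in that comparison, so 1 of 10 was near the general share. Hdac10 differed by -32.3 points, Hdac2 by 22.0 and Hdac7 by 22.65 without passing. None of these passed in the other 3 comparisons, and the median of the list in CPT1a knockout was 2.09 points.

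Of 19 regulators and substrates of sirtuins, 15 were tested. For rank, 1 was higher and 1 lower in CPT1a knockout, where 9.9% of all genes passed. In KAT2a knockout 1 was higher and 1 lower (4.32% of all genes), and with acetate against scramble 1 was higher and 2 lower (5.91%). Acss2, the cytosolic and nuclear acetyl-CoA synthetase that uses acetate and is activated by SIRT1, was lower than in scramble (69.0 ± 7.90) in all 3 groups. The CPT1a knockout libraries averaged 33.0 ± 13.3, the acetate libraries 24.9 ± 2.56 and the KAT2a knockout libraries 19.5 ± 4.78 (limma adjusted p = 0.0128, 0.00815 and 0.00862), and no library of these groups reached the lowest scramble library (61.8). Idh2, a mitochondrial substrate of SIRT3, was higher in KAT2a knockout (81.3 ± 5.53) and with acetate (78.2 ± 7.05) than in scramble (28.7 ± 11.3, limma adjusted p = 0.0215 and 0.0214), and it stood at 55.1 ± 22.8 in CPT1a knockout (limma adjusted p = 0.132). Mlycd, the malonyl-CoA decarboxylase and a SIRT4 substrate, was higher in CPT1a knockout (23.4 ± 1.49 against 6.36 ± 2.01, limma adjusted p = 0.044). This call, like the others of the lists, was not examined under alternative settings. Hif1a was lower with acetate than in scramble (56.9 ± 16.2 against 94.95 ± 3.07, limma adjusted p = 0.0238). Sod2, a SIRT3 substrate, differed by -16.1 points in CPT1a knockout without passing. Rela, the gene of p65, had a percentile of 60.5 ± 12.2 for scramble, 69.4 ± 17.6 for KAT2a knockout, 73.8 ± 12.8 for CPT1a knockout and 78 ± 10.5 for acetate, and no comparison passed (limma adjusted p from 0.357 to 0.962).

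The gene whose rank followed each member most closely over the 12 libraries, leaving out genes under the same peak, was Pi4k2b for Sirt1 (Pearson's r = 0.93), Dpp3 for Sirt2 (0.86), Trmt1l for Sirt3 (0.92), Tmem38a for Sirt4 (0.89), Snx4 for Sirt5 (0.92), Rassf5 for Sirt6 (0.84) and Phka1 for Sirt7 (0.91). Each is the highest of the correlations with all other genes ranked, over libraries that share groups and depths, and is given as a description.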

How the data were processed

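H3K9ac peak lists of 12 libraries were used, and the 12 input libraries of the 24 samples were not used here. The authors called peaks in each library separately with MACS2, and the deposited lists give a fold enrichment over the local background (a ratio), −log10 p-values and −log10 q-values, with a lowest −log10 q of about 2, and peak positions in mm10. The methods name fastq-mcf, FastQC, BWA, Picard and deepTools, whereas the processing notes of the submitters list FastQC, Bowtie2, SAMtools, deepTools, MACS2 and the builds mm10 and dm6 without roles. The Drosophila spike-in of the methods was left aside, and total H3K9ac was therefore not measured.

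Peaks overlapping the 1000 bp on either side of an annotated start (GENCODE vM21) by at least 1 bp were assigned to the gene. Fold enrichment is not scaled between libraries and was compared as a rank among the 10777 genes called at their promoter in every one of the 12 libraries. Rank, log2 summed width and summit distance from the RefSeq start (8126 genes) were tested with limma 3.58.1 in R 4.3.3 over 4 groups of 3 libraries, with Benjamini-Hochberg adjustment over all genes tested and a threshold of 0.05. Two-sided exact permutation tests compared 3 libraries with 3 (20 assignments) or 3 with 9 (220 assignments). Scripts were tested on simulated data. Calling depth was recovered from the fold enrichments and −log10 p-values. The depth in reads is not given in the lists, so no counting interval is given.

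The members and lists were chosen with earlier results of these data known, and the summit measure and the exclusion of the 3 shallowest libraries were added after values had been seen. From each list the 2 highest and 2 lowest genes in CPT1a knockout against scramble are named, together with Rela and the gene most alike in rank to each member. Genes that passed the threshold in other comparisons (Hif1a and Idh2) were named after their values were seen. Sequences and their positions are from RefSeq (GRCm38.p6), where 7 of 7 members matched. Alternatives were ranks by −log10 p, ranks among all peaks, removal of the GC trend, a depth covariate, a replicate block, a 500 bp window, a 200 bp overlap, a −log10 q of at least 5, the widest or merged peaks, and leaving out libraries. They were examined for the 7 members, and not for the calls of Epcam, Hdac4, Acss2, Idh2, Mlycd and Hif1a.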

Additional observations from a re-analysis of the deposited data

How the results depend on the processing

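All 84 promoter calls remained with a 500 bp window, with a 200 bp overlap and with a −log10 q of at least 5. None of the differences that changed sign had passed the threshold before, and none passed it after, and the cause of these changes was not tested. When ranks were taken among all peaks, 2 members passed in CPT1a knockout instead of 1, and the differences turned to -7.20 (Sirt1), -6.77 (Sirt5), -1.15 (Sirt6) and -8.70 points (Sirt7) there, to -1.46 (Sirt1) and -2.26 (Sirt3) in KAT2a knockout, to 3.64 (Sirt4) and 3.56 (Sirt6) for acetate against CPT1a knockout and to -1.30 (Sirt7) for acetate against scramble. After removal of the GC trend, 0 members passed in CPT1a knockout (376 genes higher and 380 lower), and the ranks turned to -8.87 (Sirt1), 8.85 (Sirt4) and -0.54 (Sirt7) there, to -0.72 (Sirt1), 8.82 (Sirt4), 0.27 (Sirt5) and -0.96 (Sirt6) in KAT2a knockout and to 7.49 (Sirt4) for acetate against scramble. Ranked by −log10 p, 1 member (Sirt3) passed for acetate against scramble (1075 genes higher and 1277 lower, against 201 and 436 by fold enrichment) and 1 for scramble against the other 9, and the ranks turned to -11.4 (Sirt3) and 3.60 (Sirt5) in KAT2a knockout, 0.72 (Sirt4) for acetate against CPT1a knockout and 2.30 (Sirt5) for acetate against scramble. The split by −log10 p was 1525 higher and 1557 lower in CPT1a knockout and 997 and 1164 in KAT2a knockout. With calling depth as a covariate, 0 ranks passed in CPT1a knockout (188 genes higher and 206 lower), 2 widths passed there and 0 for acetate against scramble. Under it the Sirt5 rank turned to 3.18 in KAT2a knockout and 3.87 for acetate against scramble, the Sirt1 log2 width to 0.0138 in KAT2a knockout and the Sirt6 summit to 31.5 bp for acetate against scramble.

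Without the 3 shallowest libraries, 0 ranks passed in CPT1a knockout (277 genes higher and 324 lower), 0 widths (227 wider and 1622 narrower) and 3 summits (75 farther and 2580 nearer) in KAT2a knockout, and the Sirt5 rank turned to 8.76 in KAT2a knockout. For acetate against CPT1a knockout the Sirt7 rank turned to -3.32, the Sirt1 log2 width to -0.00358 and the Sirt3 summit to 1 bp, and for acetate against scramble the Sirt6 summit to 0.5 bp. By the widest single peak, 1 width passed in CPT1a knockout (127 genes wider and 2852 narrower), 0 in KAT2a knockout (60 and 151), 0 for acetate against scramble (60 and 651) and 1 for scramble against the other 9. The log2 widths then turned to 0.27 (Sirt1), 0.10 (Sirt2), 0.0491 (Sirt4) and 0.083 (Sirt7) in KAT2a knockout, to -0.0934 (Sirt1) and -0.45 (Sirt2) for acetate against CPT1a knockout and to 0.0419 (Sirt4) and 0.17 (Sirt7) for acetate against scramble. With peaks within 500 bp merged, 3 widths passed in KAT2a knockout (84 genes wider and 4641 narrower), 3 for acetate against scramble (50 and 5332) and 5 for scramble against the other 9. With a 500 bp window 0 passed in KAT2a knockout (109 and 1685). For scramble against the other 9, the share over all genes was not counted under these alternatives.

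With the replicate block, 0 ranks passed in CPT1a knockout (Sirt3 adjusted p = 0.0501, 409 genes higher and 435 lower), and no other call of a member changed. The numbers did not pair the libraries: 0 of 18 same-number pairs had a correlation of deviations over 0.1 (range -0.06 to 0.07), and 2 of 12 libraries correlated best with their own number.

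Leaving out 1 library at a time, the members past the threshold numbered 0 to 1 for rank in CPT1a knockout, 3 to 5, 0 to 1 and 0 to 4 for width in CPT1a knockout, KAT2a knockout and acetate against scramble, 3 to 5 and 3 to 4 for summits in KAT2a knockout and acetate against scramble, and 0 to 5 for width of scramble against the other 9. The values that changed sign were, for rank in KAT2a knockout, Sirt3 (-4.89 to 7.59), Sirt5 (-12.5 to 8.89) and Sirt7 (-6.06 to 0.23). For rank with acetate against CPT1a knockout they were Sirt2 (-4.28 to 7.98), Sirt4 (-5.09 to 2.85), Sirt6 (-11.2 to 5.35) and Sirt7 (-0.97 to 5.71), and against scramble Sirt5 (-9.74 to 9.12). For log2 width they were Sirt1 (-0.13 to 0.32) and Sirt5 (-0.0987 to 0.12) with acetate against CPT1a knockout and Sirt6 with acetate against scramble (-0.11 to 0.17) and in KAT2a knockout (-0.0572 to 0.23). For summits, in bp, they were Sirt1 (-44.2 to 41.8) and Sirt4 (-23.7 to 41.5) with acetate against CPT1a knockout and Sirt4 (-87.5 to 4) and Sirt6 (-36 to 21.5) with acetate against scramble.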
